A study of Homo sapiens with 6 samples.

Results

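The circadian clock genes examined here were PER1, PER2, PER3, CRY1, CRY2, CLOCK, NR1D1, NR1D2, DBP and TEF. They were chosen by symbol, as the probe sets whose platform annotation gives exactly 1 gene symbol and that symbol is one of these, which gave 10 of the 18417 genes with such a probe set. Each had 1 probe set. All 10 were brighter than the dimmest 40% of genes. RNA came from WM164, an established human melanoma line with a BRAF mutation, derived from a lymph node metastasis, and was profiled on 6 Affymetrix arrays that cover whole transcripts. Parent cells (3 arrays) were given the vehicle DMSO, for a time not found in the labels. IDTC cells (induced drug tolerant cells, 3 arrays) were given PLX4032, an inhibitor of mutant BRAF also known as vemurafenib, at 500 nM for 16 days. Both groups are cells of this 1 line grown in RPMI medium with serum, and only the medium of the treated cells is described as renewed, every 3 days. The labels give neither the hour of harvest nor the time since the last change of medium. The points of any daily cycle at which the samples were taken are thus unknown, and a change of level and a change of phase cannot be told apart in these values. Samples were kept in triplicate and RNA was isolated from each separately. Whether the cultures were independent experiments is not stated, so a p-value here covers only the variation among these samples, and that variation may be technical.

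The circadian clock is a transcriptional feedback loop with a period of about a day, present in most cells of the body, skin and pigment cells included. CLOCK and its partner BMAL1 bind E-box elements and activate the PER and CRY genes, whose proteins return to the nucleus and inhibit CLOCK and BMAL1. In a second loop the REV-ERB receptors, encoded by NR1D1 and NR1D2, repress BMAL1 while the ROR receptors activate it. DBP and TEF are PAR bZIP factors that carry the rhythm to D-box elements in output genes, where NFIL3 opposes them. In cultured cells a change of serum, glucocorticoids or cAMP can reset the clock, with PER1 among the early responders.

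In the drug-tolerant cells PER3, NR1D2, CRY2 and DBP rose, CLOCK and PER2 fell, and PER1, CRY1, NR1D1 and TEF did not pass the test. PER3 rose 4.17-fold, NR1D2 1.89-fold, CRY2 1.67-fold and DBP 1.57-fold, whereas CLOCK was 1.64-fold and PER2 1.23-fold lower. Within the PER, CRY, NR1D and PAR bZIP families, 1 member of each passed the test upward and the other or others did not. That split alone does not compare the related genes. When they were compared directly, the groups of arrays did not overlap in any of 6 pairs. The exact permutation test (2-sided) gave p = 0.1 for each pair, the smallest that 3 arrays against 3 allow. Outside these 10 genes, BMAL1 rose and NPAS2, a paralogue of CLOCK, fell.

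A gene was called when limma, fitted over all 18417 genes, gave a Benjamini-Hochberg adjusted p under 0.05, and only called genes are said to have risen or fallen. Values of single arrays and means ± SD (n = 3 per group) are log2 expression as deposited, and differences are IDTC minus Parent on the log2 scale, with their standard error. Adjusted p-values are from that limma fit. Of the 10 clock genes 6 were called, 4 higher and 2 lower, where limma called 46.6% of all genes (21.7% higher and 24.9% lower). Among the genes brighter than the dimmest 40%, to which all 10 belong, limma called 65.0%. A count of 6 in 10 genes is close to these backgrounds and is not a result about the group. At a change of 2-fold or more only PER3 of the 10 was called, against 9.21% of all genes (3.81% higher and 5.40% lower). The 2 groups of arrays did not overlap for 8 of the 10 genes (6 higher and 2 lower), against 54.1% of all genes (25.4% higher and 28.7% lower) and 72.7% of those brighter than the dimmest 40%. The median difference was 0.11 for the clock genes and -0.01 for all genes, and the median absolute difference was 0.48 and 0.21. All genes here include the dimmest 40%, to which none of the 10 belongs. Over 61 other clock-related genes described below, 53 of them brighter than that, the median absolute difference was 0.42. The differences of the clock genes ranged from -0.72 for CLOCK to 2.06 for PER3.

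**Figure D1:**
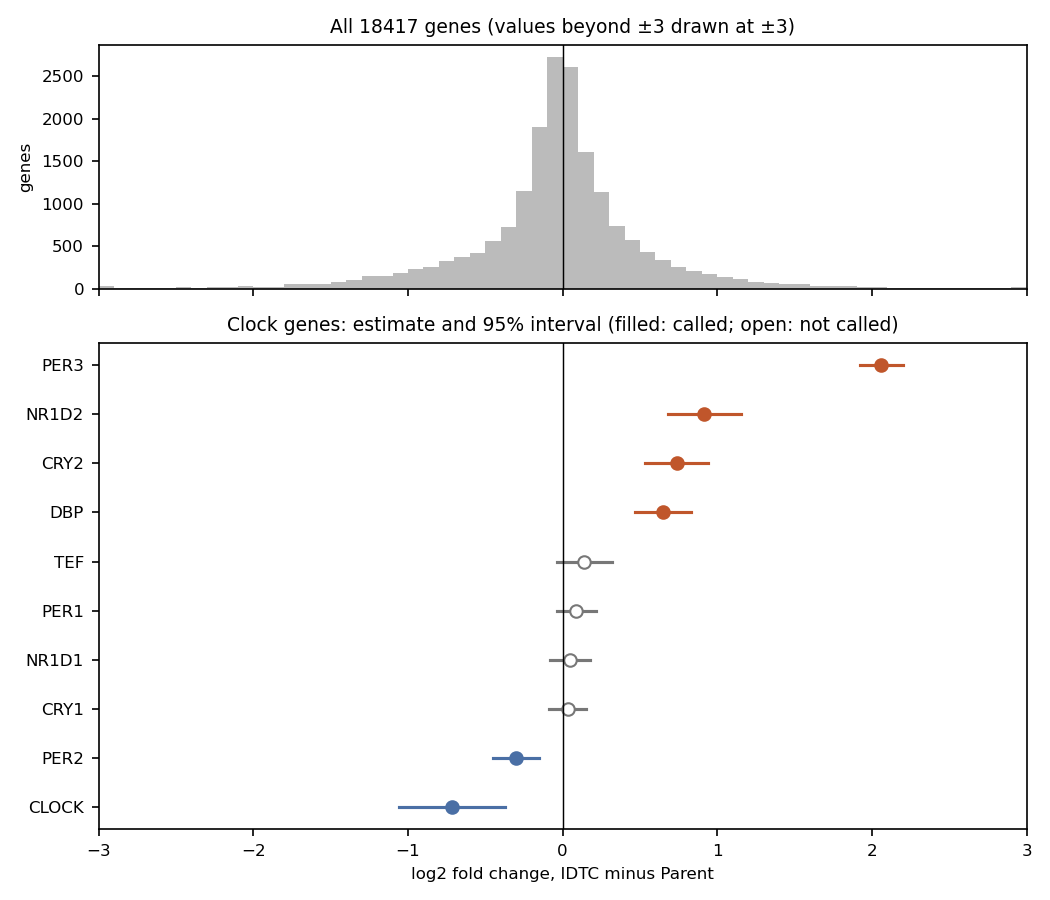
The upper panel counts all 18417 genes by their log2 fold change (IDTC minus Parent, bins of 0.1), and the lower panel gives each clock gene's estimate and 95% interval on the same axis. PER3 at 2.06 stands far to the right of the other 9 genes, and the intervals of TEF, PER1, NR1D1 and CRY1 cross 0.

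Arrays of 1 group correlated at r = 0.995 to 0.998 across genes and arrays of different groups at 0.953 to 0.957, and no 2 arrays were identical. Of 8 melanocytic markers 6 were higher in IDTC, S100B was lower and MITF was not called, with their mean level at 9.90 to 9.96 on the Parent and 10.80 to 10.95 on the IDTC arrays. TYRP1, which rose from 4.69 to 7.58, was among the dimmest 40% of genes over the 6 arrays and the other 7 were not. No keratinocyte (0 of 4) or endothelial (0 of 4) marker was called. Of 5 fibroblast markers LUM and PDGFRA fell, with mean levels of 6.30 to 6.37 and 6.11 to 6.13. Of 4 immune markers LYZ fell, with mean levels of 5.46 to 5.48 and 4.69 to 4.77. The part of any of these in the clock gene values was not tested.

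The PER genes encode the large repressor proteins that bind CRY and, with it, inhibit CLOCK and BMAL1. PER3, a period protein that is not essential for the rhythm itself, read 7.58, 7.49 and 7.62 on the Parent arrays and 9.64, 9.66 and 9.57 on the IDTC arrays. All IDTC arrays lay above all Parent arrays, with a gap of 1.95 between the groups and a spread of about 0.1 within each. The rise was 2.06 ± 0.06 (95% interval 1.92 to 2.20, adjusted p = 4.91e-07), and 1.23% of all genes changed by as much or more in either direction. PER2, one of the essential repressors of the loop, read 7.61, 7.50 and 7.54 in Parent and 7.30, 7.29 and 7.16 in IDTC. The groups did not overlap but lay only 0.21 apart. PER2 fell by 0.30 ± 0.06 (adjusted p = 0.00535). PER1, the period gene that responds early to serum, glucocorticoid and cAMP signals, read 7.81, 7.83 and 7.83 in Parent and 7.89, 7.98 and 7.87 in IDTC. The IDTC arrays were all above the Parent arrays, by a gap of 0.04, and the difference of 0.09 ± 0.05 did not pass the test (adjusted p = 0.228). The 95% interval ran from -0.04 to 0.22.

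**Figure D2:**
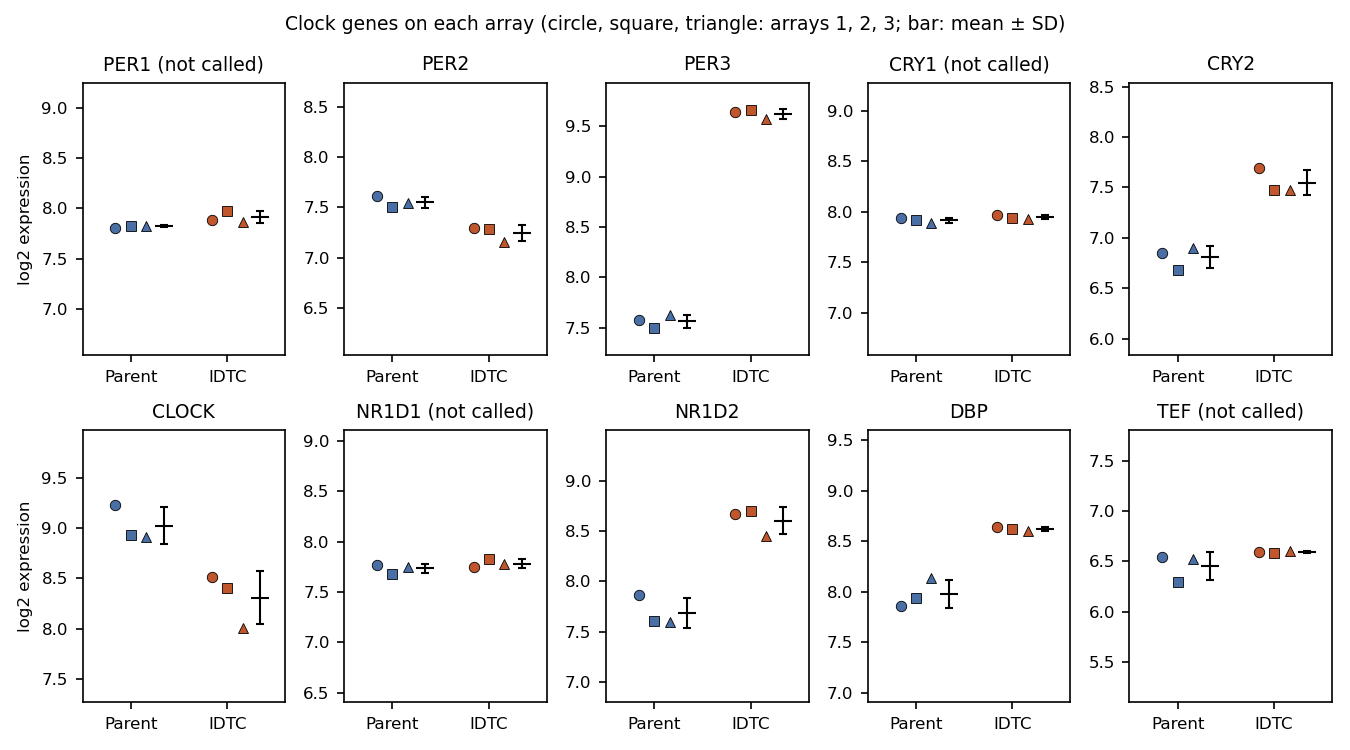
Each panel plots 1 clock gene, with log2 expression on an axis of the same length in every panel, the 3 Parent and 3 IDTC arrays as points and the group mean ± SD beside them. PER3 separates by about 2 log2 units, NR1D2, CRY2, DBP and CLOCK by less than 1, and PER1, CRY1, NR1D1 and TEF by 0.14 or less.

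The promoters of the 3 PER genes are shown because PER3 rose, PER2 fell and PER1 did not pass the test. Each is the 250 bases before the RefSeq gene start on GRCh38.p14, read 5′ to 3′ on the gene's strand. Capitals mark matches, on either strand, to the E-box CACGTG, the E-prime box CACGTT, the D-box (TTATGTAA or TTACGTAA), the receptor-binding hexamer AGGTCA or the cAMP response element TGACGTCA. The PER1 window is chr17:8152405-8152654 on the minus strand, the PER2 window chr2:238288611-238288860 on the minus strand, and the PER3 window chr1:7784041-7784290 on the plus strand.
PER1: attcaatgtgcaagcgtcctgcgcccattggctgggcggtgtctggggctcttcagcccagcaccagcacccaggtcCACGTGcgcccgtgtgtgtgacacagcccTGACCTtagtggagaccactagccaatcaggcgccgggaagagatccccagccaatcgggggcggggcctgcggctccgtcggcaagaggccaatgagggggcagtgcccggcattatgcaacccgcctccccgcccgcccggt
PER2: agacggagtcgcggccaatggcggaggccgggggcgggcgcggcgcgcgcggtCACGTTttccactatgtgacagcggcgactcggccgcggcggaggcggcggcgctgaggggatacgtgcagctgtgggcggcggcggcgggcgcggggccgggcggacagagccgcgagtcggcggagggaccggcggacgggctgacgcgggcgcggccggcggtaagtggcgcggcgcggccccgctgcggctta
PER3: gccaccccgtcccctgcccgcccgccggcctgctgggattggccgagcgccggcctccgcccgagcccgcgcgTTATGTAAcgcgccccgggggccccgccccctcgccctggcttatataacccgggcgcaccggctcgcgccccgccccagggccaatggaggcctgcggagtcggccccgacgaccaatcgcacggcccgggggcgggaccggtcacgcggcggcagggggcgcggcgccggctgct
The PER1 window holds an E-box 173 to 168 bases before the start and a hexamer on the opposite strand. The PER2 window holds an E-prime box 197 to 192 bases before the start. The PER3 window holds a D-box 177 to 170 bases before the start and neither kind of E-box, and the window of a second annotated PER3 start, which lies further downstream, holds no match. Of 35116 annotated promoter windows of this length 6.34% hold the E-box, 4.55% the E-prime box, 0.94% the D-box, 12.1% the hexamer and 1.65% the cAMP response element. A match is a stretch of letters, not a measured binding site.

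The CRY genes encode the cryptochromes, the stronger repressors of CLOCK and BMAL1. CRY2 read 6.85, 6.68 and 6.90 in Parent and 7.69, 7.48 and 7.48 in IDTC. All IDTC arrays were above all Parent arrays, IDTC 1 being the highest. CRY2 rose by 0.74 ± 0.09 (adjusted p = 0.000269). CRY1, its close relative, read 7.94, 7.92 and 7.89 in Parent and 7.97, 7.94 and 7.93 in IDTC. The groups overlapped, Parent 1 and IDTC 2 carrying the same value. The difference of 0.03 ± 0.05 did not pass the test (adjusted p = 0.647, 95% interval -0.09 to 0.15).

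CLOCK encodes the activator that pairs with BMAL1. It read 9.23, 8.93 and 8.91 in Parent and 8.51, 8.40 and 8.01 in IDTC, the widest spread of any of the 10 genes in both groups. The groups did not overlap (gap 0.40), Parent 1 being the highest of its group and IDTC 3 the lowest. CLOCK fell by 0.72 ± 0.15 (adjusted p = 0.00506, 95% interval -1.06 to -0.37). All 3 listed activators beside it were called, where limma called 46.6% of all genes. Among the genes brighter than the dimmest 40%, to which 2 of the 3 belong, limma called 65.0%. BMAL1 (ARNTL in older annotation) read 6.54, 6.25 and 6.25 in Parent and 7.20, 7.17 and 6.91 in IDTC and rose by 0.75 ± 0.11 (adjusted p = 0.00103). Like CLOCK it was highest on Parent 1 within the Parent group and lowest on IDTC 3 within the IDTC group, although the 2 genes moved in opposite directions between the groups. NPAS2, which can replace CLOCK as the partner of BMAL1, fell by 0.97 ± 0.06, from 10.98 ± 0.07 to 10.02 ± 0.03 (adjusted p = 8.34e-06). BMAL2 fell by 0.38 ± 0.10 (adjusted p = 0.0162) at a dim level. That call was lost without Parent 1 (adjusted p = 0.0503), without Parent 3 (0.0623) and without IDTC 1 (0.0511).

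NR1D1 and NR1D2 encode REV-ERB alpha and REV-ERB beta, heme-binding receptors that repress BMAL1. NR1D2 read 7.86, 7.60 and 7.60 in Parent and 8.66, 8.70 and 8.44 in IDTC. All IDTC arrays lay above all Parent arrays by a gap of 0.58, with Parent 1 high and IDTC 3 low in their groups, as for CLOCK and BMAL1. That order was not particular to clock genes, and the fibroblast marker LUM had it too. Over all genes the deviations of Parent 1 and IDTC 3 from their group means correlated at -0.473. NR1D2 rose by 0.92 ± 0.10 (adjusted p = 0.000195), the second largest change among the 10 genes. NR1D1 read 7.77, 7.68 and 7.75 in Parent and 7.74, 7.83 and 7.77 in IDTC. The groups overlapped, and the difference of 0.05 ± 0.05 did not pass the test (adjusted p = 0.526, 95% interval -0.08 to 0.18). NR1D1 overlaps THRA, the thyroid hormone receptor alpha gene, in the RefSeq annotation. THRA rose by 1.51 ± 0.06, from 7.69 ± 0.10 to 9.19 ± 0.02 (adjusted p = 2.07e-06), so the 2 overlapping genes gave unlike values on these arrays. NR1D2 likewise overlaps NKIRAS1, which fell by 0.75 ± 0.10, and CLOCK overlaps TMEM165, which fell by 0.40 ± 0.07. Whether the probes of these pairs share signal was not tested.

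The promoter windows of the 2 receptor genes are shown with the same marking because 1 of them rose and the other did not pass the test. The NR1D1 window is chr17:40100590-40100839 on the minus strand. For NR1D2 the window of the second of 2 annotated starts is given, chr3:23945871-23946120 on the plus strand, since the window of the first holds no match.
NR1D1: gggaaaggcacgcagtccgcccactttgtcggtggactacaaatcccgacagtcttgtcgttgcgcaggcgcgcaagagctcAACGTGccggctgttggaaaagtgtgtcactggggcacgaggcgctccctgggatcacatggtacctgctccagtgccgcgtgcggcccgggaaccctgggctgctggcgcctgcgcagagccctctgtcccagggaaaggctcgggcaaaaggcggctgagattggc
NR1D2: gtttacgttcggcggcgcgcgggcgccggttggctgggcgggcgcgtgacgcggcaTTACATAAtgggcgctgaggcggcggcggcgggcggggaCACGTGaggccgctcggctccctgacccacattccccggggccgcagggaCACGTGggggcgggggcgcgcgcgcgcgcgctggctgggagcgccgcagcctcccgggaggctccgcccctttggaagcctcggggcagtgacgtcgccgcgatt
The NR1D1 window holds an E-prime box, on the opposite strand, 168 to 163 bases before the start. The NR1D2 window holds 2 E-boxes, 155 to 150 and 105 to 100 bases before the start, and a D-box on the opposite strand 194 to 187 bases before it. Over the 15 windows of all 10 clock genes, 3 genes had an E-box (PER1, NR1D2 and TEF), 5 an E-prime box (PER2, CRY1, CRY2, CLOCK and NR1D1), 2 a D-box (PER3 and NR1D2), 2 the hexamer (PER1 and CRY2) and 0 the cAMP response element. Counted by window, as the shares of all promoters are, the E-box was in 4 of 15, the E-prime box in 5 and the D-box in 2. The hexamer was in 3 windows and the cAMP response element in 0. The DBP window holds none of the 5 motifs. Genes with and without an E-box were found both among those that rose and among those that were not called.

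Both measured ROR genes, which encode the activators that compete with REV-ERB, were called, in opposite directions. Across all genes the called share was 46.6%. RORA read 7.95, 7.77 and 7.76 in Parent and 6.89 on all 3 IDTC arrays, a fall of 0.94 ± 0.07 (adjusted p = 2.08e-05). RORB rose by 1.09 ± 0.07 (adjusted p = 1.69e-05), from 5.41 ± 0.13 to 6.50 on all 3 IDTC arrays, and was among the dimmest 40% of genes. As deposited, 225 of 33297 probe sets carry 1 value on all 3 IDTC arrays and 413 on all 3 Parent arrays. For such genes the SD of the group is 0 and is no estimate of error. None of the 10 clock genes was among them.

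DBP and TEF encode activators of D-box genes, and DBP is among the transcripts with the largest daily swing in many tissues. DBP read 7.86, 7.93 and 8.13 in Parent and 8.64, 8.62 and 8.61 in IDTC. The IDTC arrays lay within 0.04 of each other and above every Parent array. DBP rose by 0.65 ± 0.08 (adjusted p = 0.000303). TEF read 6.54, 6.30 and 6.52 in Parent and 6.59, 6.59 and 6.60 in IDTC. The IDTC arrays were above the Parent arrays by a gap of 0.04, and the difference of 0.14 ± 0.08 did not pass the test (adjusted p = 0.181, 95% interval -0.04 to 0.32). TEF was the dimmest of the 10 genes, brighter than 42.9% of all genes. The third PAR bZIP gene, HLF, was dim in both groups and not called (5.20 ± 0.08 and 5.08 ± 0.16). NFIL3, the repressor at D-boxes and a gene that REV-ERB represses, read 7.83, 7.71 and 7.63 in Parent and 8.28, 8.35 and 8.07 in IDTC and rose by 0.51 ± 0.09 (adjusted p = 0.00236).

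Because probe sets differ in brightness, related genes were compared by how their difference within an array changed between the groups. The intervals of these pairs come from the pooled SD of the within-array differences and a t distribution, not from limma. The change of PER1 was larger than that of PER2 by 0.39 (95% interval 0.25 to 0.54). The change of PER1 minus that of PER3 was -1.97 (-2.10 to -1.84), and that of PER2 minus that of PER3 was -2.36 (-2.47 to -2.25). The change of CRY1 minus that of CRY2 was -0.71 (-0.96 to -0.45), that of NR1D1 minus that of NR1D2 -0.87 (-1.16 to -0.58), and that of DBP minus that of TEF 0.51 (0.22 to 0.80). In each of the 6 pairs the 3 IDTC arrays lay on one side of the 3 Parent arrays. The exact permutation test (2-sided) gave p = 0.1 for each, the smallest that 3 arrays against 3 allow, and 0.1 after adjustment over the 6 pairs, so this test cannot reach 0.05.

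**Figure D3:**
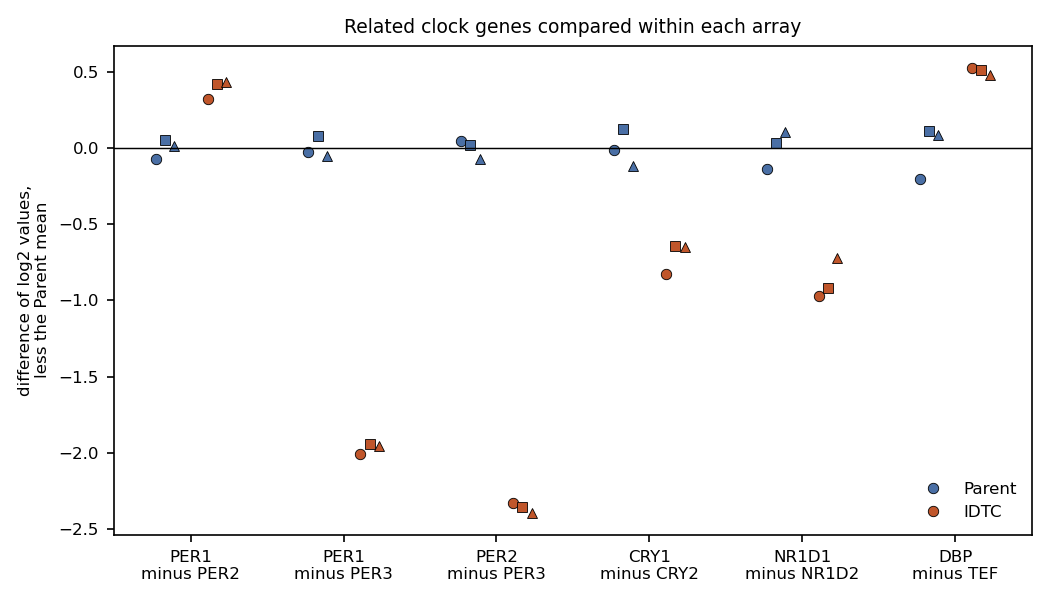
For each of 6 pairs of related clock genes the log2 value of the first minus that of the second is plotted for every array, less the mean of the Parent arrays (circle, square and triangle for arrays 1, 2 and 3). The IDTC points lie at a mean of -1.97 and -2.36 for the pairs with PER3 and closer to 0 for the other 4 pairs, and in no pair do the groups overlap.

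A list of 7 genes held other repressors of the loop, relatives of PAR bZIP factors, and TIMELESS with TIPIN. Of the 7, 2 rose, 3 fell and 2 (HLF and CIART) missed the threshold. Limma called 46.6% of all genes. BHLHE40 and BHLHE41 encode DEC1 and DEC2, repressors that compete with CLOCK and BMAL1 for E-boxes. BHLHE40 read 10.75, 10.80 and 10.78 in Parent and 9.42, 9.44 and 9.23 in IDTC and fell by 1.42 ± 0.07 (adjusted p = 3.53e-06). BHLHE41 read 10.59 on all 3 Parent arrays and 11.15, 11.21 and 11.10 in IDTC and rose by 0.56 ± 0.05 (adjusted p = 9.02e-05). TIMELESS and its partner TIPIN, whose proteins also guard the replication fork, fell by 0.87 ± 0.08 and 2.03 ± 0.08 (adjusted p = 0.000102 and 1.58e-06).

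Of 15 measured genes for enzymes that act on PER, CRY or other clock proteins, 5 were higher, 6 lower and 4 uncalled, with a median difference of -0.06. PRKAA2, a catalytic subunit of AMP-activated kinase, which marks CRY for degradation, fell by 1.89 ± 0.05, from 8.95 ± 0.04 to 7.05 ± 0.02. The other catalytic subunit, PRKAA1, fell by 0.44 ± 0.05, and PPP1CA, a catalytic subunit of protein phosphatase 1, by 0.64 ± 0.05. BTRC, which encodes the ubiquitin ligase subunit that recognises phosphorylated PER, rose by 0.39 ± 0.06. The 11 measured cofactor genes split into 5 that rose, 4 that fell and 2 that were uncalled, around a median of -0.03. All genes of both lists were brighter than the dimmest 40%, and limma called 65.0% of all genes that bright. MYBBP1A fell by 1.42 ± 0.05, WDR5, a subunit of histone methyltransferase complexes, by 1.08 ± 0.05 and the RNA-binding SFPQ, found in PER complexes, by 0.84 ± 0.05, whereas the acetyltransferase gene CREBBP rose by 0.57 ± 0.07. The adjusted p was 0.00153 for BTRC, and for the other 7 of these 8 genes at most 0.00029.

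Among 12 measured genes known as outputs of the clock in other tissues, 5 rose, 5 fell and 2 missed the threshold, around a median of -0.04. TSC22D3, a glucocorticoid-induced leucine zipper gene, rose by 1.18 ± 0.08 (adjusted p = 1.33e-05) and KLF11, a Krüppel-like factor gene, by 0.97 ± 0.06 (adjusted p = 9.39e-06), to 8.82 on all 3 IDTC arrays. CDKN1A, the gene of the cell cycle inhibitor p21, fell by 2.09 ± 0.08 (adjusted p = 1.31e-06) and ALAS1, the first enzyme of heme synthesis, by 1.13 ± 0.07 (adjusted p = 1.47e-05). Of 11 measured genes of the glucocorticoid and cAMP signals that reset the clock, 4 rose, 3 fell and 4 missed the threshold, around a median of 0.03. CREB1, the cAMP response factor gene, rose by 1.04 ± 0.07, the glucocorticoid receptor gene NR3C1 by 0.96 ± 0.09 and the CREB coactivator gene CRTC3 by 0.89 ± 0.06, while the kinase gene SGK1 fell by 0.89 ± 0.05 (adjusted p at most 7.39e-05 for the 4). Over all 61 measured partner genes 23 rose and 24 fell, 47 called in all, and for 50 the groups did not overlap, beside the shares of 46.6% and 54.1% over all genes. Of the 61, 53 were brighter than the dimmest 40% of genes, and among all genes that bright the shares were 65.0% and 72.7%. The called genes of each list went both ways.

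**Figure D4:**
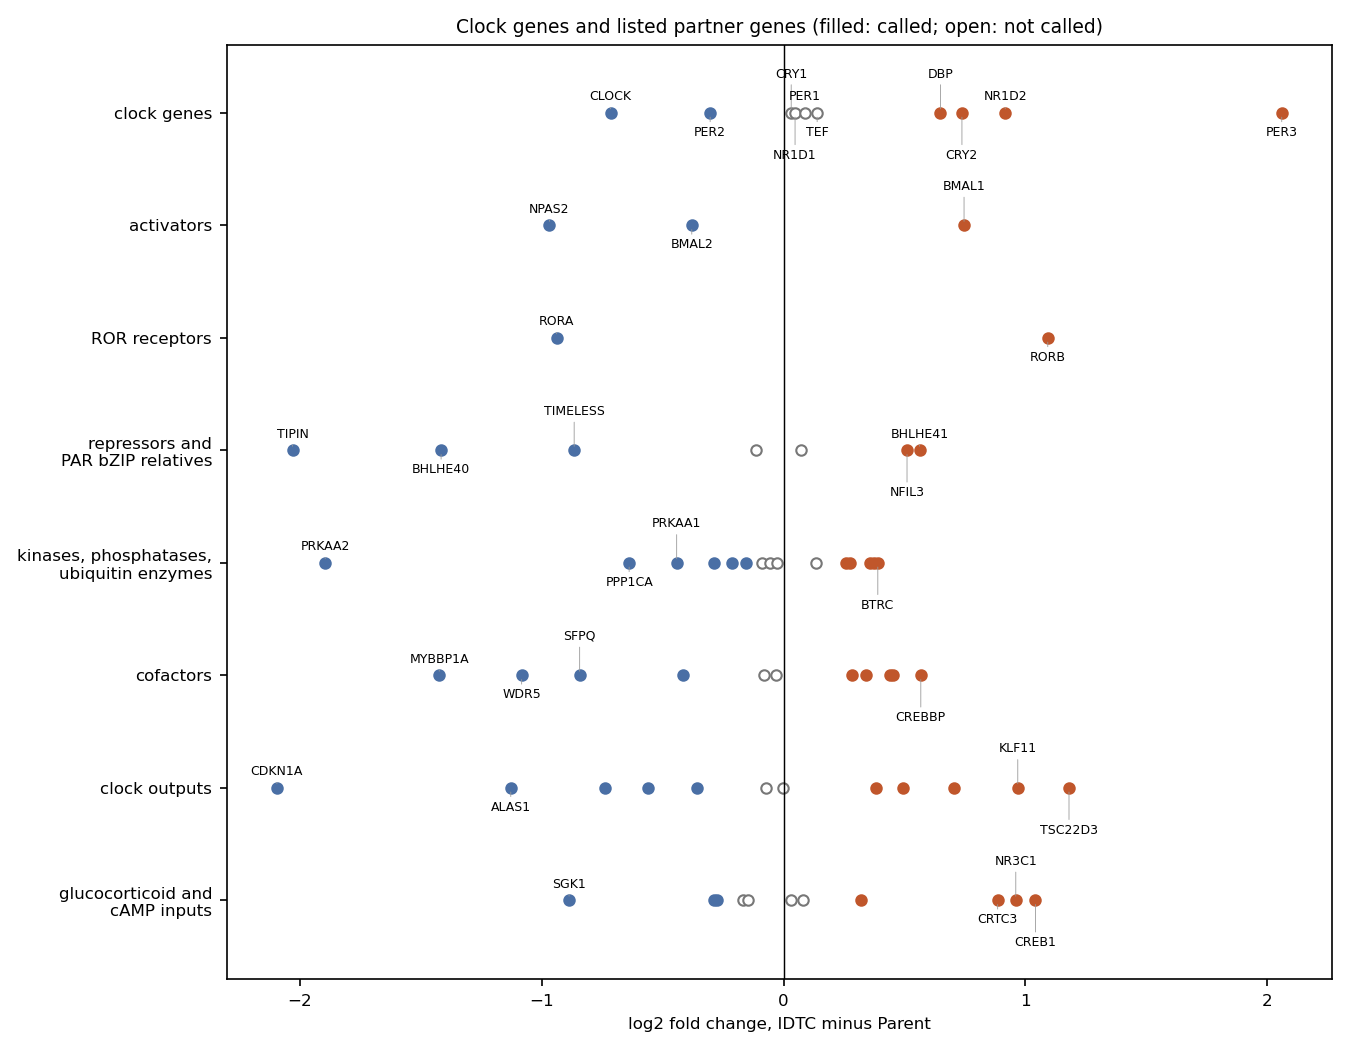
Each row is 1 list, with the clock genes at the top, and each point is 1 gene at its log2 fold change (IDTC minus Parent), filled orange where called higher, filled blue where called lower and open where not called. Every row holds called genes on both sides of 0, and the widest spread is between CDKN1A and TSC22D3 among the clock outputs.

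The genes whose course over the 6 arrays was nearest to that of PER3 were sought by the root mean square distance between mean-centred log2 values. The nearest 5 were YPEL2 (distance 0.026), GASK1B (0.041), CD99L2 (0.060), ALDH6A1 (0.063) and GRIK2 (0.064), which rose by 2.03 to 2.08. In all 28 genes lay within 0.1 of PER3. With 2 groups of arrays this likeness says little beyond a change of equal size.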

How the data were processed

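The authors deposited 1 table of log2 expression values for 33297 probe sets on 6 arrays, already normalized between arrays. Tools listed in the submitters' processing notes, in no stated order, are RMA, Partek 6.6 and Affymetrix Expression Console. Genome build and detection calls are not given in the sources used here, so a level above background is unknown and the change of a dim gene may be understated. The number of arrays limits the precision. Array medians were 6.25 to 6.36 and interquartile ranges 3.31 to 3.60.

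Of the probe sets, 19460 had 1 gene symbol, 1754 had several and 12083 were not listed in the platform annotation. Where a gene had several probe sets, the one with the highest mean stood for it. Each of the 18417 genes entered a 2-sided limma fit without covariates or filter (limma 3.58.1, R 4.3.3), adjusted by Benjamini-Hochberg over all genes. Alternatives were other scaling, probe set, variance and filter choices, a replicate block and leaving out each array. Promoters came from RefSeq (GRCh38.p14), in which all 10 genes matched by symbol. The members, lists and rules were chosen with earlier results of these data known. Named partners were, per list, the 4 called genes with the largest absolute change, with BMAL1, NPAS2, RORA, NFIL3 and BHLHE40 always. HLF, CIART and the overlapping genes THRA, NKIRAS1 and TMEM165 were named outside that rule, after their values were seen. Of 71 listed partner genes 61 were measured, and the others are not analysed here.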

Additional observations from a re-analysis of the deposited data

How the results depend on the processing

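The 10 clock genes kept their direction and their side of the threshold under all 13 alternatives that were run, which gave 4 higher and 2 lower each time. PER3 ranged from 2.02 to 2.12, NR1D2 from 0.87 to 1.00, CRY2 from 0.67 to 0.80, DBP from 0.59 to 0.73, PER2 from -0.33 to -0.24 and CLOCK from -0.82 to -0.57. The differences between related genes, which only quantile normalization and leaving out an array could move, kept their sign under those 7. Re-centring the arrays on the median of all 18417 genes with 1 symbol was an alternative chosen after seeing the data. It gave PER1 0.15 (adjusted p = 0.0659) and TEF 0.20 (adjusted p = 0.0599). The balance over all genes turned from 3996 higher and 4592 lower to 4846 and 4017. Each clock gene had 1 probe set, so no other could be tried. Deviations of same-numbered arrays from their group means correlated at 0.315, -0.192 and 0.260. Parent 1 and Parent 3 correlated best with the IDTC array of the same number, and Parent 2 with IDTC 3 (0.372). Deviations within a group depend on each other, so these values cannot decide whether sample numbers pair the arrays. With the replicate block 4148 genes were higher and 4707 lower, and PER3 stood at 2.06. Of 26 named partner genes BMAL2 lost its call without Parent 1, Parent 3 or IDTC 1. BMAL2 and RORB were among the dimmest 40% of genes and so had no value with that filter, which left 0 ROR genes called higher in place of 1 and 1 activator gene called lower in place of 2. The other 24 kept their call under all 13. The absence of detection calls limits the dim genes most.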
